A study of Mus musculus with 30 samples.

Results

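Trimethylation of histone H3 at lysine 4 (H3K4me3) was compared between ER-Hoxa9-Lys-GFP mouse cells kept without estradiol (E2) for 120 h and the same cells kept without E2 for 72 h and then given E2 again for 48 h. Both cultures therefore ended 120 h after E2 was washed out, and they differ in whether E2 came back. The comparison rests on 2 of the 30 samples of the series, 1 library a side, and its members are the peaks of each list that share no base with a peak of the other. These were 5240 of 23835 peaks in the 120 h list and 1881 of 21790 peaks in the 72 h list. The cells are of strain C57BL/6 and were grown in vitro in medium with 10% FBS and 1% SCF-conditioned medium, and each ChIP used 500 ug of chromatin. Other H3K4me3 lists come from the same cells in continuous E2, or after 24 h or 40 h without it. In the latter, E2 was then restored for 96 h or 80 h. These are called the earlier lists below, for their shorter withdrawal and not for an earlier harvest. Of the 5 H3K4me3 lists, only the 120 h list comes from cells without E2 at harvest. Sites of tagged HOXA9, from V5 ChIP in V5-Hoxa9-AM cells with 30 ug of chromatin, come from another line. With 1 library per condition no difference below has a replicate check and no p-value is given. The exact (Clopper-Pearson) 95% intervals reflect the number of peaks counted and nothing else, and peaks near each other are not independent.

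HOXA9 is a homeobox protein of blood stem and progenitor cells, and in acute myeloid leukaemia it holds cells in an immature state. As a fusion with the part of the estrogen receptor (ER) that binds hormone, it works while E2 is present, so that withdrawal of E2 lets the cells differentiate along the myeloid path. A neutrophil matures in steps that are read from its granules. Primary granule proteins such as myeloperoxidase are made first, by promyelocytes. Secondary and tertiary granule proteins such as lactoferrin follow, and receptors for chemotaxis and cytosolic calcium-binding proteins come last. H3K4me3 marks the start of transcribed genes, and its broadest domains often lie at cell-identity genes. The covered length used below is not a measure of expression. The question put by this pair of conditions is what chromatin state the cells reach when withdrawal goes on past 72 h, relative to cells that had 72 h of withdrawal and were then returned to E2. Any difference can come from the longer withdrawal or from the return of E2, and in this design the effects of longer withdrawal and of E2 return cannot be told apart.

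The sequences just before the transcription start site (TSS) of 6 genes introduce the loci on which the results turn. They are the 250 bases upstream of the start, 5′ to 3′ along the gene, from RefSeq on GRCm38.p6. Capitals mark matches on either strand to TTNNGNAA, the letters of a C/EBP site, to AGGAAG, a core bound by PU.1, or to TTTGGCGC, a core bound by E2F. Ltf, Lcn2, Ngp and Stfa1 are shown because they carried H3K4me3 peaks only at 120 h. Mpo is shown for its much longer covered stretch at 72 h, and Mcm6 as a replication gene with peaks in both lists.
Ltf (chr9:111019042-111019291, plus strand): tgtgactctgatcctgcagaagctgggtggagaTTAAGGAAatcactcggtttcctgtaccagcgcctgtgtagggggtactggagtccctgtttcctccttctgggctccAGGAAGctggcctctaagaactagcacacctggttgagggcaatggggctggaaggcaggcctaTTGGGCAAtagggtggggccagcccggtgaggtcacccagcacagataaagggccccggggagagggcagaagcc
Lcn2 (chr2:32387740-32387989, minus strand): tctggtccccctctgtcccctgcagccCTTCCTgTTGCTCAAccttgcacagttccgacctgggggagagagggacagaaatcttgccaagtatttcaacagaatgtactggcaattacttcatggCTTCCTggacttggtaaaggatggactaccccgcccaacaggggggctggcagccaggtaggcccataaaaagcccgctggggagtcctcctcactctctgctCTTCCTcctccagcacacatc
Ngp (chr9:110419558-110419807, plus strand): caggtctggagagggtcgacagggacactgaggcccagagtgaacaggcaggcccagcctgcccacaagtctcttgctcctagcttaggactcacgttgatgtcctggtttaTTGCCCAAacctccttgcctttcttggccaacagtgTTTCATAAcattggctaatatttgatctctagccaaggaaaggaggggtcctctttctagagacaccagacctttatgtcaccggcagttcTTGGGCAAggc
Stfa1 (chr16:36276898-36277147, plus strand): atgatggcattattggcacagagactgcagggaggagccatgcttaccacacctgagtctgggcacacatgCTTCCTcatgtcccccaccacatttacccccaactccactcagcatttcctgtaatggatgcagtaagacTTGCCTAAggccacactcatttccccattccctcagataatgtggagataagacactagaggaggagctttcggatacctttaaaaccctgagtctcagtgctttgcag
Mpo (chr11:87793534-87793783, plus strand): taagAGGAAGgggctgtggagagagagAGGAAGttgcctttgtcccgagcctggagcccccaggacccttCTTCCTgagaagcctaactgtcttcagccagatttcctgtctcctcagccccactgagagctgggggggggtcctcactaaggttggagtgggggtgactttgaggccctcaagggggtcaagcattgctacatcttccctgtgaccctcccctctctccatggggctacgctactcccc
Mcm6 (chr1:128359706-128359955, minus strand): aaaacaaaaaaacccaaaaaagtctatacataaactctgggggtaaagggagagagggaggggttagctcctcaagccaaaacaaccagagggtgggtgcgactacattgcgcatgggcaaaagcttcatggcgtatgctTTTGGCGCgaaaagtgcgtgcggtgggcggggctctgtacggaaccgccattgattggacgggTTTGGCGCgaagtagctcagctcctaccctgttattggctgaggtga
The C/EBP letters occur 2 times upstream of Ltf, at 217 and 75 bases before the TSS, and 3 times upstream of Ngp, at 138, 102 and 11 bases before it. Lcn2 has 1 C/EBP match at 216 bases and 3 PU.1 matches at 223, 124 and 21 bases before its TSS. Mpo has 3 PU.1 matches and no C/EBP match in this window, and Mcm6 has 2 E2F matches, at 110 and 47 bases before its TSS. A match describes letters only and shows no binding.

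Most of the H3K4me3 peaks found only under continued withdrawal lay where no other list had a peak. The 5240 peaks found only at 120 h made up 22% of that list (21.5 to 22.5%), against 8.63% (8.26 to 9.01%) for the 1881 peaks found only at 72 h. Both kinds were narrow, with medians of 269 bp for the 120 h peaks and 262 bp for the 72 h peaks. Peaks shared by the lists had medians of 710 bp in the 120 h list and 657 bp in the 72 h list. The peaks of one list only held 10.3% of the bases covered at 120 h and 3.63% of those covered at 72 h. The share was higher at 120 h on 20 of 20 chromosomes. It ranged from 20.3% on chromosomes 14 and 18 to 24.6% on chromosome 10 for the 120 h list. For the 72 h list it ranged from 6.21% on chromosome 17 to 11.4% on chromosomes 13 and X. The lists also differ in their narrowest peak, 175 bp in the 120 h list and 191 bp in the 72 h list, and 738 of the peaks found only at 120 h were narrower than 191 bp. The part that calling played in these counts was not tested. Read depth and the calling threshold are not given in the sources used here.

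Peaks of one list only lay away from gene ends more often than shared peaks. A gene end lay within 1 kb of 27.4% of the 120 h peaks (26.2 to 28.7%) and of 26.5% of the 72 h peaks (24.5 to 28.5%), against 67.2% and 68.9% of the shared peaks of the 120 h and 72 h lists. A further 47.7% of the 120 h peaks and 45% of the 72 h peaks lay inside a gene. A peak of the other list stood within 1 kb of 41.2% of the 120 h peaks (39.9 to 42.6%) and of 56.7% of the 72 h peaks (54.5 to 59%). Narrow shared peaks, under 400 bp, still had a gene end nearby in 47.2% of cases at 120 h and 55% at 72 h, against 26% and 26.2% for peaks of one list of the same width.

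The earlier lists, which played no part in choosing these peaks, separate the pair of classes. Of the peaks found only at 120 h, 4.41% overlapped a peak of cells in continuous E2 (3.87 to 5%), 16.3% a peak at 24 h and 14.8% a peak at 40 h. For peaks found only at 72 h the shares were 27.1% in E2 (25.1 to 29.2%), 49.5% at 24 h and 58.3% at 40 h. No peak of these 3 lists overlapped 76% of the 120 h peaks (74.8 to 77.1%), against 29.5% of the 72 h peaks (27.5 to 31.6%). In the other direction, 114 of the 120 h peaks (2.18%) and 378 of the 72 h peaks (20.1%) were in all 3. The larger part of the 120 h peaks was thus seen in no other H3K4me3 list. The larger part of the 72 h peaks was also present in continuous E2 or after a shorter withdrawal. Like the 72 h list, these 3 lists come from cells with E2 at harvest, and the 120 h list does not. Length of withdrawal and E2 at harvest therefore cannot be told apart in these shares. Shared peaks of the 120 h list overlapped the E2 list in 74.1% of cases.

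**Figure D1:**
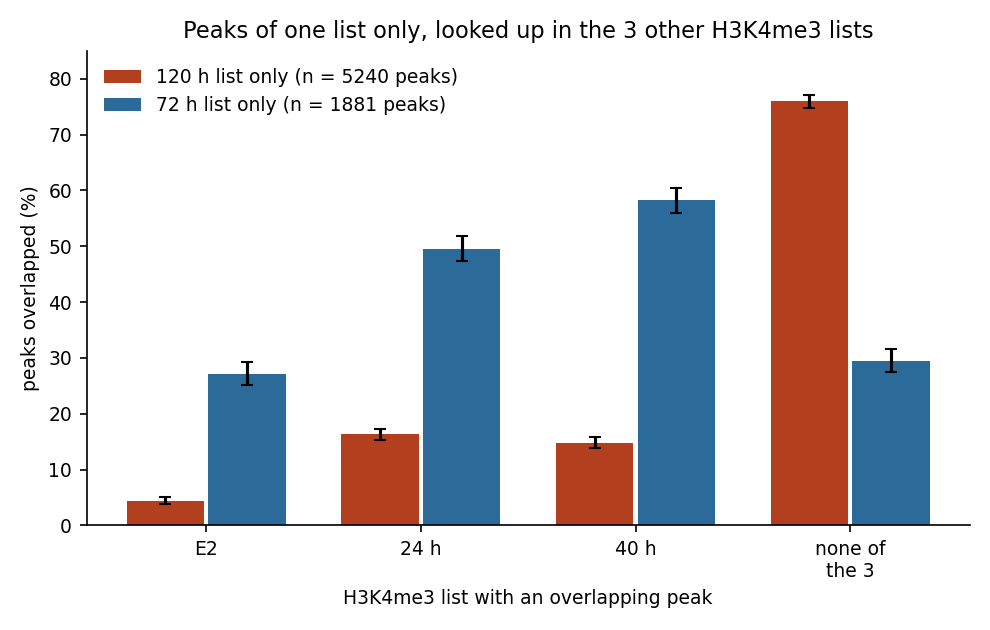
Percentage of H3K4me3 peaks of one list only (left bars 120 h, n = 5240; right bars 72 h, n = 1881) that overlap a peak in continuous E2, after 24 h or after 40 h without E2, or in none of these 3; error bars are exact 95% intervals for peak counts. The tallest 120 h bar is at none of the 3 (76%), whereas 72 h peaks reach 58.3% at 40 h.

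The widest of the peaks found only at 120 h spanned 4052 bp at Cstdc5 (chr16:36363177-36367228, mm10), a gene of the stefin cluster, whose products inhibit cysteine proteases. Next came 3372 bp at Stfa1 (chr16:36277528-36280899), 3357 bp inside the annotated span of Mmp9 (chr2:164948204-164951560), the gelatinase of tertiary granules, and 2983 bp inside Nlrp3 (chr11:59542727-59545709), an inflammasome sensor. The fifth, 2751 bp at S100a6, was partly covered at 24 h (777 bp) and 40 h (411 bp). Ly6a2 followed with 2663 bp, Lcn2, which encodes the siderophore-binding lipocalin of secondary granules, with 2628 bp, and Lsp1, a leukocyte actin-binding protein, with 2603 bp. Rflnb had 2336 bp, Pilra, an inhibitory paired receptor, 2278 bp, and Ppp1r42 2084 bp. Apart from S100a6, these stretches had 0 covered bases in each of the 4 other lists. The list at 72 h was led by 1886 bp at Tespa1 (chr10:130323455-130325340), a gene of antigen-receptor signalling, where the E2, 24 h and 40 h lists covered 1788, 1406 and 1886 bp. The next was 1854 bp inside Egln3, an oxygen-sensing prolyl hydroxylase, covered in E2 (1853 bp), at 24 h (1630 bp) and at 40 h (1854 bp). Among the 15 widest were also peaks at regulators of progenitors and early myeloid cells. These were 1112 bp at Myc, 1060 bp inside Gfi1 and 987 bp at Cebpa, each also covered in E2 (1112, 644 and 848 bp).

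Per gene, covered length was the number of bases inside peaks in the gene and 1 kb on either side. Of 11660 protein-coding genes with a peak in either list, 535 (4.59%) had peaks only at 120 h and 161 (1.38%) only at 72 h. Covered length was at least 2-fold higher at 120 h for 1059 genes (9.08%) and at least 2-fold higher at 72 h for 299 genes (2.56%), after 50 bp was added to each value. The median log2 ratio of 120 h over 72 h across all these genes was 0.01, with quartiles of -0.24 and 0.34, so most genes had similar covered length in both lists. The counts for gene lists below are read against these shares. Covered length depends on the number of cells with the mark and on the strength of the mark in each, and these cannot be told apart in bulk chromatin. Windows of neighbouring genes overlap in places, and 1 peak can then count for more than 1 gene.

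Genes of secondary and tertiary granules had the mark almost entirely at 120 h. Of 28 genes on the list, 20 had a peak at 120 h and 9 at 72 h. Of the 20, 11 had peaks only at 120 h, 17 had at least 2-fold more covered length at 120 h and 0 at 72 h, and all 20 had more at 120 h. The median log2 ratio over the 20 genes was 3.03. Ltf, encoding the iron-binding protein lactoferrin, had 4361 bp covered at 120 h and 0 bp at 72 h, split into 8 peaks of 214 to 1229 bp from the TSS into the gene. Lcn2 had 2803 bp at 120 h, while 0 bp were covered at 72 h, and Ngp, a neutrophil granule protein of the cathelicidin family, 2525 bp (120 h) and 0 bp (72 h). These 3 genes also had 0 bp in the 3 earlier lists. Mmp9 had 4845 bp at 120 h compared with 0 bp at 72 h, and Chil3, a chitinase-like secreted protein, 3175 bp (120 h) and 0 bp (72 h). Itgb2l, an integrin beta 2-like gene that overlaps Igsf5 in the annotation, had 2239 bp in the 120 h list and 0 bp in the 72 h list. Others had a short peak at 72 h that was longer at 120 h. Pglyrp1, a peptidoglycan-recognition protein, had 3306 bp at 120 h, while 479 bp were covered at 72 h, and Padi4, the enzyme that citrullinates histones in neutrophils, 2258 bp (120 h) and 280 bp (72 h). Hp, encoding haptoglobin, had 3177 bp at 120 h compared with 1081 bp at 72 h. Camp, Ly6g and Lyz2 had no peak in any of the 5 H3K4me3 lists, and whether reads at these loci could be mapped or were filtered cannot be told from peak lists.

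The list of mature neutrophil genes had the same form. Peaks were present at 32 of 36 genes at 120 h and at 17 at 72 h. Of the 33 with a peak in either, 16 had peaks only at 120 h and 1 (Slfn4, 103 bp) only at 72 h. The Slfn4 value is the edge of a 72 h peak of 1172 bp, which overlaps a 120 h peak outside the window. The mark was therefore not missing from that peak at 120 h. Covered length was at least 2-fold higher at 120 h for 26 and at 72 h for 1 (again Slfn4), with a median log2 ratio of 3.20. The stefin cluster on chromosome 16 supplied 7 of these genes. Cstdc5 had 5697 bp covered at 120 h, Stfa1 5235 bp, Cstdc4 3520 bp and Stfa2l1 3194 bp, and each had 0 bp at 72 h and in the 3 earlier lists. These genes are close paralogs, and reads can be shared between such copies, so the split among them is uncertain. S100a8 and S100a9, which encode the subunits of calprotectin, had 1760 bp and 2794 bp in the 120 h list and 0 bp in the 72 h list. S100a6, a calcium-binding protein of the same family, had 2627 bp at 120 h, while 0 bp were covered at 72 h, yet 777 bp at 24 h and 411 bp at 40 h. Mcemp1, a membrane protein of myeloid cells, had 3692 bp at 120 h compared with 0 bp at 72 h. Csf3r, whose ligand is granulocyte colony-stimulating factor, had 2955 bp covered at 120 h, while 1396 bp were covered at 72 h. Trem1, an activating receptor that amplifies inflammation, had 2690 bp in the 120 h list and 129 bp in the 72 h list, although 545 bp and 633 bp were covered at 24 h and 40 h. The 129 bp are the part inside the window of a 72 h peak of 600 bp, which overlaps a 120 h peak.

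**Figure D2:**
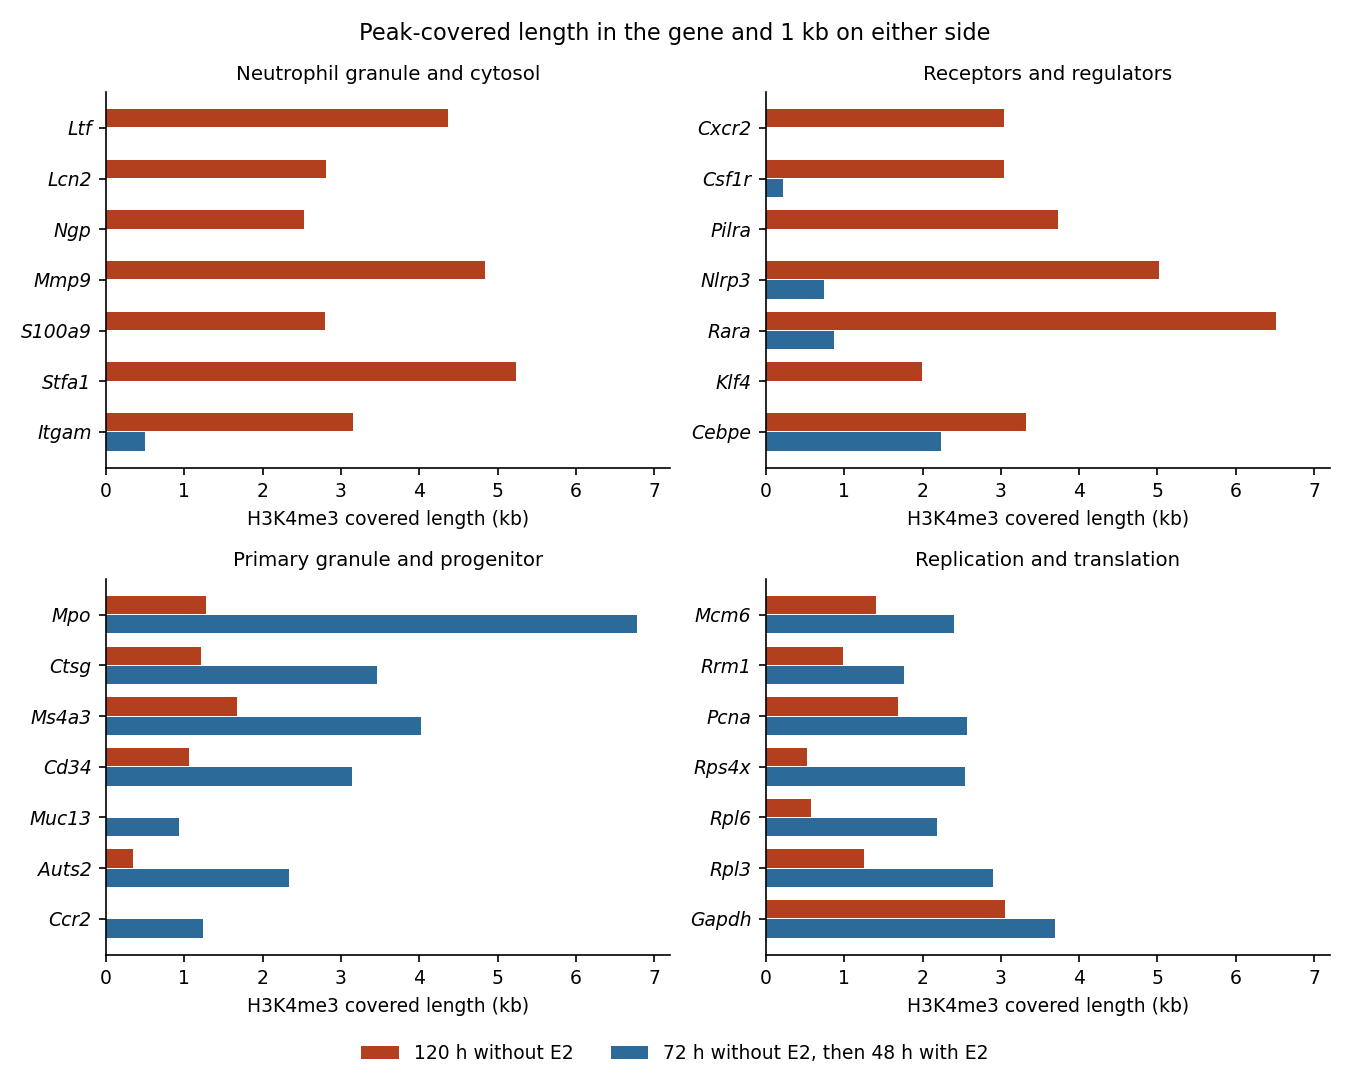
H3K4me3 covered length (kb) in the gene and 1 kb on either side, for 28 genes in 4 panels; upper bars are 120 h without E2 and lower bars 72 h without E2 followed by 48 h with E2, 1 library each. Ltf, Lcn2, Ngp, Mmp9, S100a9 and Stfa1 have a bar only at 120 h, and Mpo has 1270 bp at 120 h beside 6782 bp at 72 h.

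Primary granule genes, which are used before the secondary granules form, had less of the mark at 120 h in part. Of 13 genes with a peak, 5 had more covered length at 120 h and 8 at 72 h. At least 2-fold more was found at 120 h for 1 and at 72 h for 4, and the median log2 ratio was -0.53. Around gene ends the median was -0.24 with 2 genes past 2-fold at 72 h, and with peaks above the median width it was -1.04 with 6. Mpo, encoding myeloperoxidase, had 1270 bp covered at 120 h in 3 peaks of 329, 586 and 355 bp, and 6782 bp at 72 h, of which 4663 bp lay in 1 peak. The earlier lists covered 5894 bp in E2, 6347 bp at 24 h and 6207 bp at 40 h, so the 120 h list is the low one of the 5. Ctsg, encoding the serine protease cathepsin G, had 1209 bp at 120 h compared with 3461 bp at 72 h, against 4131 bp in E2. Cst7, encoding the protease inhibitor cystatin F, had 707 bp in the 120 h list and 2089 bp in the 72 h list. Ms4a3, a membrane protein of granulocyte-monocyte progenitors, had 1667 bp at 120 h, while 4026 bp were covered at 72 h, and it had 0 bp in E2, at 24 h and at 40 h, so its longest coverage was at 72 h. Fcnb, encoding a ficolin that recognises microbial sugars, was the 1 gene past 2-fold at 120 h, with 951 bp compared with 0 bp at 72 h. Igsf6, which overlaps Mettl9 in the annotation, also had more at 120 h (4846 bp) than at 72 h (2810 bp), below 2-fold. Prtn3, encoding proteinase 3, had 2867 bp (120 h) and 3606 bp (72 h). Elane had no peak in any of the 5 lists, with the same limit.

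**Figure D3:**
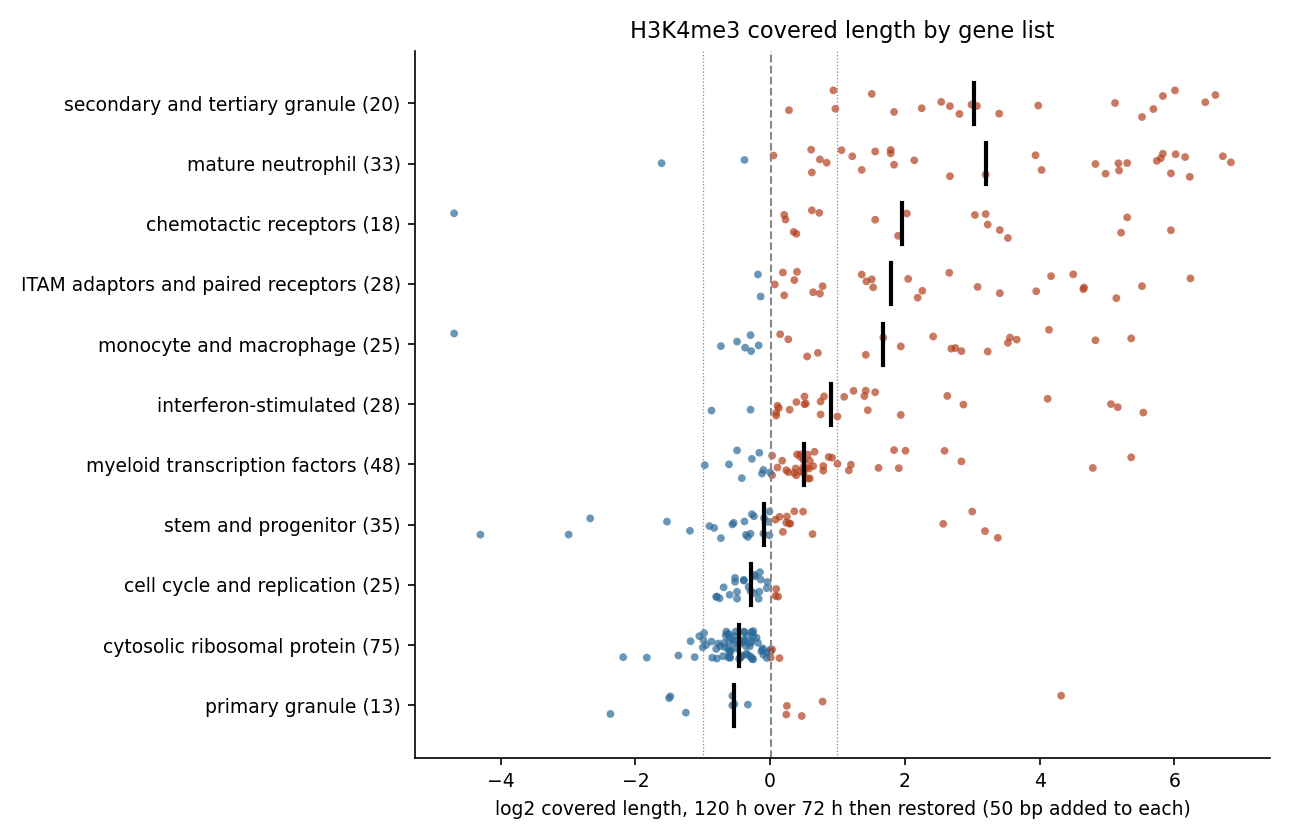
Log2 ratio of H3K4me3 covered length, 120 h over 72 h then restored, for each gene with a peak in either list, for 11 of the 26 gene lists (number of genes in parentheses). Each point is a gene, black bars are list medians, the dashed line is the median of all 11660 genes (0.01) and dotted lines mark 2-fold; the median is 3.20 for mature neutrophil genes and -0.53 for primary granule genes.

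Surface receptors of mature myeloid cells shared the pattern of the secondary granules. Among 28 genes with a peak for activating adaptors with immunoreceptor tyrosine-based activation motifs (ITAM) and the paired receptors that use or oppose them, 11 had peaks only at 120 h and 0 only at 72 h. At least 2-fold more covered length was found at 120 h for 18, and the median log2 ratio was 1.79. Pilra had 3725 bp in the 120 h list and 0 bp in the 72 h list, Pirb, an inhibitory immunoglobulin-like receptor, 1710 bp (120 h) and 0 bp (72 h), and Cd300c2 2252 bp (120 h) and 0 bp (72 h). Tyrobp, the adaptor DAP12 through which many of these receptors signal, had 4625 bp at 120 h, while 1567 bp were covered at 72 h. The related adaptor Fcer1g, the common gamma chain of Fc receptors, had 3819 bp at 120 h compared with 2437 bp at 72 h, below 2-fold. Of 18 chemotactic receptor genes with a peak, 8 had peaks only at 120 h and 1 only at 72 h. Cxcr2, the receptor for neutrophil-attracting chemokines, had 3037 bp at 120 h in 6 peaks and 0 bp at 72 h, and C5ar1, the receptor for complement fragment C5a, 1799 bp (120 h) and 0 bp (72 h). The exception was Ccr2, the receptor that draws monocytes from the marrow, with 0 bp in the 120 h list and 1242 bp in the 72 h list. Its coverage in E2, at 24 h and at 40 h was 4244, 3388 and 3632 bp, so the 72 h value lies between those and 120 h.

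Monocyte and macrophage genes were divided. Of 25 with a peak, 14 had at least 2-fold more covered length at 120 h and 1 at 72 h, and the median log2 ratio was 1.68, but 7 of the 25 had more at 72 h. Csf1r, whose ligand is macrophage colony-stimulating factor, had 3040 bp at 120 h, while 218 bp were covered at 72 h. Cd14, a co-receptor for lipopolysaccharide, had 1371 bp at 120 h compared with 0 bp at 72 h, and Klf4, a transcription factor of monocyte differentiation, 1998 bp (120 h) and 0 bp (72 h). The defining neutrophil markers, Camp and Ly6g included, had a peak at 7 of 9 genes at 120 h and at 1 of 9 at 72 h, with 20235 bp (120 h) and 1396 bp (72 h) in sum. For monocytes and macrophages these were 4 of 6 genes and 6033 bp at 120 h, against 3 of 6 genes and 1800 bp at 72 h. The 5 progenitor markers Cd34, Kit, Flt3, Meis1 and Myb had peaks in both lists, with 12437 bp in the 120 h list and 17722 bp in the 72 h list. Erythroid and megakaryocyte markers had a peak at 2 of 4 genes at 120 h and 3 of 4 at 72 h, with 1645 bp (120 h) and 1897 bp (72 h) in sum, and Gata1 had none in either. Lymphoid (Rag1, Pax5, Cd3e), mast cell and eosinophil (Fcer1a, Epx, Prg2, Cpa3) and fibroblast or epithelial markers (Col1a1, Krt8, Epcam, Pdgfra) were at 0 bp in both lists. Longer lists for some of these cell types held genes with peaks. Of 15 fibroblast and epithelial genes, 4 had a peak at 120 h and 2 at 72 h, all 4 with more covered length at 120 h (3 of 4 after scaling by total covered length), and Acta2 (293 bp) and Cdh1 (363 bp) had one only at 120 h. Of 22 mast cell, eosinophil, basophil and dendritic cell genes, 6 had a peak at 120 h and 5 at 72 h. Zbtb46 had one only at 120 h (485 bp), and Siglecf had 1221 bp (120 h) and 408 bp (72 h). The part of other cell types in the results was not tested.

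Genes of innate signalling were marked more at 120 h with less uniformity. Of 28 interferon-stimulated genes with a peak, 6 had peaks only at 120 h, 14 had at least 2-fold more covered length at 120 h and 0 at 72 h, and the median log2 ratio was 0.90. Oas2, which makes the second messenger that activates RNase L, had 2273 bp at 120 h, while 0 bp were covered at 72 h, and Oasl1 1618 bp (120 h) and 0 bp (72 h). Isg15, a ubiquitin-like modifier, had 820 bp at 120 h compared with 0 bp at 72 h, but 387 bp at 24 h and 273 bp at 40 h. Among 27 Toll-like receptor and inflammasome genes with a peak, 8 were past 2-fold at 120 h and 0 at 72 h, or 4 of 19 at 120 h with peaks above the median width. Nlrp3 had 5021 bp in the 120 h list and 740 bp in the 72 h list. All 7 listed genes of the NADPH oxidase, the enzyme of the oxidative burst, had more covered length at 120 h, and 2 of them were past 2-fold. Cybb, its membrane subunit, had 740 bp at 120 h, while 0 bp were covered at 72 h, and Ncf1, a cytosolic subunit, 3466 bp (120 h) and 1761 bp (72 h). Among 18 adhesion genes with a peak 9 were past 2-fold at 120 h and 1 at 72 h, with a median log2 ratio of 0.65. Around gene ends 3 of 15 were past 2-fold at 120 h with a median of 0.28, and with peaks above the median width 6 of 16 with a median of 0.11. Itgam, the integrin alpha M chain, had 3154 bp at 120 h compared with 499 bp at 72 h, and its partner Itgb2 5259 bp (120 h) and 1437 bp (72 h).

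Myeloid transcription factors mostly had peaks in both lists. Of 48 with a peak, 2 (Irf4 and Klf4) had peaks only at 120 h and 0 only at 72 h. Covered length was past 2-fold at 120 h for 10 and at 72 h for 0, and the median log2 ratio was 0.50. Rara, the retinoic acid receptor alpha, had 6518 bp at 120 h in 12 peaks and 865 bp at 72 h in 3 peaks, and the count includes its overlap with Gm46294. Tfeb, a regulator of lysosomal genes, had 4205 bp in the 120 h list and 1085 bp in the 72 h list, and Klf2 2640 bp (120 h) and 397 bp (72 h). Cebpe, the factor required for secondary granules, had 3327 bp at 120 h, while 2234 bp were covered at 72 h, with 0, 200 and 224 bp in E2, at 24 h and at 40 h. It thus carried the mark in the restored culture, where Ltf, Lcn2 and Ngp had no peak. Cebpa, its relative in progenitors, had 3316 bp (120 h) and 3599 bp (72 h), and Spi1, encoding PU.1, had 5463 bp at 120 h compared with 3141 bp at 72 h. Gfi1, a repressor needed for granulopoiesis, had 4009 bp in the 120 h list and 5656 bp in the 72 h list, and Tfec had 1563 bp (120 h) and 3119 bp (72 h).

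Progenitor genes showed no common direction. Of 35 stem and progenitor genes with a peak, 3 had peaks only at 120 h (among them Igf2bp2 and Procr) and 3 only at 72 h (Mycn, Muc13 and Mecom). Past 2-fold were 4 at 120 h and 5 at 72 h, and the median log2 ratio was -0.09, or 0.02 around gene ends with 1 gene past 2-fold at 72 h. Cd34, encoding a sialomucin of progenitors, had 1053 bp at 120 h, while 3138 bp were covered at 72 h, both below the 4628, 5030 and 5690 bp of E2, 24 h and 40 h. Kit, the receptor for stem cell factor, had 2365 bp at 120 h compared with 3946 bp at 72 h. Its 72 h peak was unbroken over 3946 bp, where 120 h had 2 peaks of 1670 and 695 bp. Muc13, a membrane mucin, had 0 bp in the 120 h list and 937 bp in the 72 h list, against 2199, 3151 and 2810 bp in E2, at 24 h and at 40 h. Myb, encoding a factor of progenitor growth, had 4428 bp at 120 h, while 6545 bp were covered at 72 h. Meis1, a HOXA9 partner, had 3077 bp (120 h) and 2180 bp (72 h), and Hoxa9 itself 1281 bp (120 h) and 1156 bp (72 h). Auts2 had 340 bp at 120 h compared with 2335 bp at 72 h, where the earlier lists had 4770 to 4941 bp. Lymphoid genes with peaks only at 72 h were Tespa1 (0 bp in the 120 h list and 2384 bp in the 72 h list), Gimap6 (0 bp at 120 h beside 704 bp at 72 h) and Rag2 (0 bp at 120 h beside 397 bp at 72 h), each covered in E2 as well (2386, 801 and 1359 bp). Rag2, a recombinase subunit, overlaps Iftap in the annotation. Those with peaks only at 120 h were Cd79a (608 bp) and Tcf7 (443 bp). Of 15 lymphoid genes with a peak, 4 were past 2-fold in each direction.

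Genes for growth differed in breadth, not in presence. All 25 cell cycle and replication genes had a peak in both lists, and 0 were past 2-fold in either direction. Covered length was lower at 120 h for 22 of 25, with a median log2 ratio of -0.29. Within 1 kb of the gene ends alone the median was -0.01 and 14 of 25 were lower at 120 h. Mcm6, a subunit of the replicative helicase, had 1402 bp at 120 h in 3 peaks and 2400 bp at 72 h in 1 peak, and Rrm1, a subunit of ribonucleotide reductase, 989 bp (120 h) and 1763 bp (72 h). Of 75 cytosolic ribosomal protein genes with a peak, a list added after the values were seen, 71 had less covered length at 120 h and 4 had more. Past 2-fold were 0 at 120 h and 7 at 72 h, with a median log2 ratio of -0.46. Around gene ends alone 52 of 74 were lower at 120 h, 1 was past 2-fold at 72 h and the median was -0.14, while 17 were past 2-fold at 72 h with peaks above the median width. Rps4x had 524 bp at 120 h, while 2548 bp were covered at 72 h, and Rpl6 577 bp (120 h) and 2179 bp (72 h). Housekeeping genes had a median log2 ratio of -0.26 over 20 genes. Gapdh had 3054 bp at 120 h compared with 3697 bp at 72 h, whereas Actb had 5218 bp (120 h) and 2053 bp (72 h). Replication-dependent histone genes, another list added after the values were seen, mostly had more covered length at 120 h. Of 62 with a peak, 19 were past 2-fold at 120 h and 0 at 72 h, 57 had more covered length at 120 h, and the median was 0.43. These genes lie in clusters of near-identical copies, and their counts are uncertain for that reason.

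In the neutrophil, cell cycle and ribosomal protein groups, covered length differed more downstream of the TSS than upstream. For 54 TSSs of secondary granule and mature neutrophil genes, peaks covered on average 1552 bp of the first 3 kb downstream at 120 h and 256 bp at 72 h, and 169 bp (120 h) and 62 bp (72 h) of the 3 kb upstream. For 22 TSSs of cell cycle genes the downstream means were 1067 bp in the 120 h list and 1504 bp in the 72 h list, while the upstream means were 538 bp (120 h) and 560 bp (72 h). For 66 TSSs of ribosomal protein genes they were 1026 bp (120 h) and 1647 bp (72 h) downstream, and 420 bp (120 h) and 462 bp (72 h) upstream. Over all 21044 TSSs, the downstream means were 486 bp (120 h) and 480 bp (72 h), and the upstream means 276 bp (120 h) and 259 bp (72 h) upstream. Peaks thus covered more of the downstream side at 120 h for neutrophil genes and less for replication and ribosomal protein genes. These means include TSSs without a peak. A peak touched the 300 bases around the TSS at 55.6% of neutrophil TSSs at 120 h and 22.2% at 72 h, so presence and reach are mixed there. For 90 TSSs of ITAM, monocyte and chemotactic genes, the downstream means were 1099 bp (120 h) and 607 bp (72 h). Their upstream means were 180 bp (120 h) and 94 bp (72 h).

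**Figure D4:**
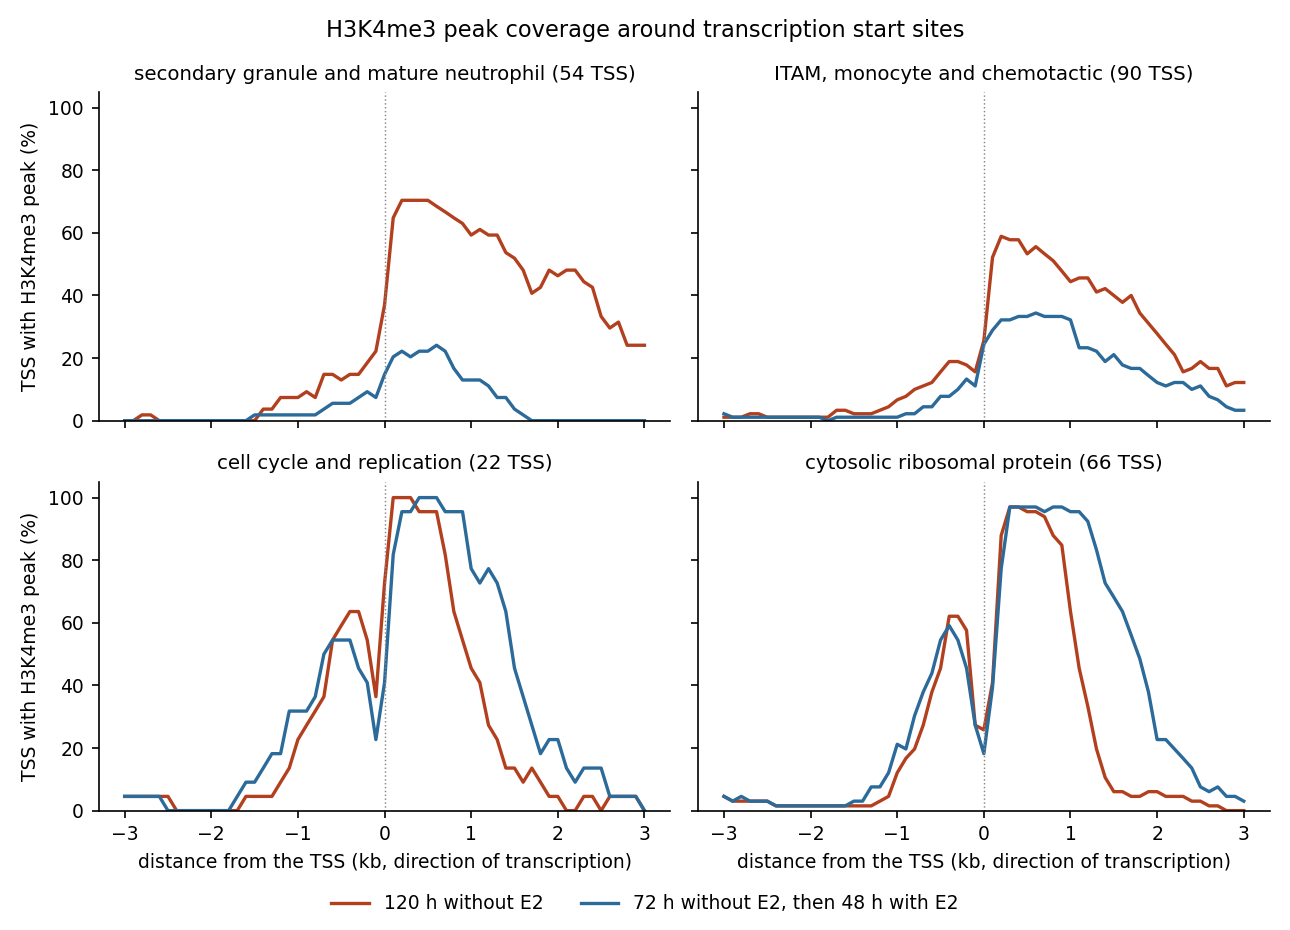
Percentage of transcription start sites (TSS) inside an H3K4me3 peak, at each distance from the TSS in kb with transcription running to the right, for 4 groups of genes; one line is 120 h without E2 and the other 72 h followed by 48 h with E2. The 120 h line is above at 54 neutrophil TSSs and ends closer to the TSS at 22 cell cycle and 66 ribosomal protein TSSs.

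A general feature of the lists, seen at genes marked throughout, was how often the TSS base itself lay inside a peak. Over 9023 TSSs with a peak within 1 kb in all 5 lists, this share was 17.8% in the E2 list, 28.3% after 24 h, 27.4% after 40 h, 44.3% after 72 h (43.3 to 45.4%) and 67.9% after 120 h (67 to 68.9%). The start, where promoters commonly lack a nucleosome, thus lay inside a peak more often at 120 h. An uncovered start can lie between peaks or beyond the edge of a peak, and these cases were not separated. The mean length covered within 1 kb of these TSSs differed less, 1245 bp at 120 h compared with 1193 bp at 72 h. The peaks per list and covered length do not follow the same order, since 24 h had 22871 peaks over 14.2 Mb, 72 h 21790 over 16 Mb and 120 h 23835 over 17.3 Mb. The E2 list was the smallest, with 17497 peaks over 10.4 Mb. Lengths and overlap shares given for E2 were not scaled for this. Fragment length and resolution of the libraries, which also set whether peaks reach the start, are not given in the sources used here, and their part was not tested.

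**Figure D5:**
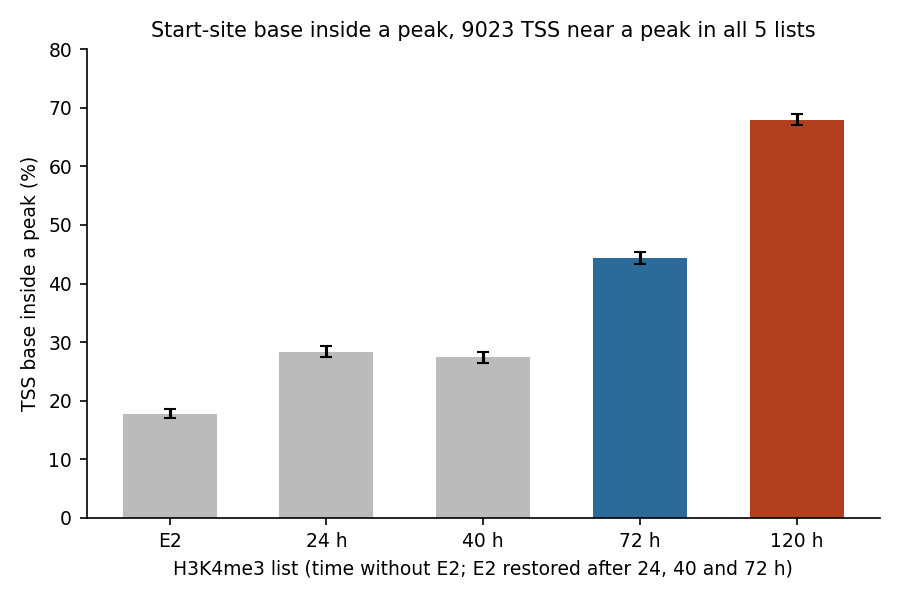
Percentage of 9023 transcription start sites (TSS with a peak within 1 kb in all 5 lists) whose TSS base lies inside an H3K4me3 peak, by list in order of time without E2; E2 was restored after 24, 40 and 72 h, and error bars are exact 95% intervals. The bars are 17.8% in E2, 44.3% at 72 h and 67.9% at 120 h.

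Promoters marked in one list only were poor in CpG. Of 10392 TSSs with a peak within 1 kb in either list, 391 (3.76%) had one only at 120 h and 77 (0.741%) only at 72 h. The median ratio of observed to expected CpG in the 300 bases around the TSS was 0.35 for each of these classes, against 0.77 for 9924 promoters marked in both lists and 0.26 for 10652 marked in neither. The C/EBP letters TTNNGNAA occurred in 36.8% of the 120 h promoters (32 to 41.8%), in 49.4% of the 72 h promoters (37.8 to 61%) and in 34.1% of all 21044. They were in 27.3% of promoters marked in both lists and in 40.3% of those marked in neither, which are also poor in CpG. The PU.1 letters AGGAAG occurred in 39.9% of the 120 h promoters (35 to 44.9%), in 40.3% of the 72 h promoters (29.2 to 52.1%) and in 28.7% of all. The letters of an interferon response element, GAAA followed after any 2 bases by GAAA, occurred in 5.37% of the 120 h promoters (3.36 to 8.09%), in 2.6% of the 72 h promoters (0.316 to 9.07%) and in 2.98% of all. TTTGGCGC was in 0.256%, 1.3% and 0.513% of these. In promoters marked in both lists and in neither, the PU.1 letters occurred in 27.3% and 29.5%. For the interferon response letters these shares were 2.65% and 3.21%, and for TTTGGCGC 0.877% and 0.178%. Both strands were searched, and matches of different motifs shared a base in 1.83% of promoters. The intervals of the 120 h and 72 h promoters overlapped for each of the 4 motifs. Overlap of intervals does not show that the shares are alike, and a difference between the classes was not tested.

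Sites of V5-tagged HOXA9, mapped in untreated V5-Hoxa9-AM cells, were present at both classes. They overlapped 13.5% of the peaks found only at 120 h (12.6 to 14.4%) and 8.45% of those found only at 72 h (7.23 to 9.8%). Of shared peaks they overlapped 13.4% in the 120 h list and 12% in the 72 h list, so the 120 h share was near that of shared peaks. Among peaks under 400 bp the shares were 12.9% and 8.33%, against 9.75% and 9.71% of narrow shared peaks of the 120 h and 72 h lists. Away from gene ends 15.6% of the 120 h peaks and 9.54% of the 72 h peaks held a site, against 15% and 13.9% of the shared peaks of the 120 h and 72 h lists. At gene ends these shares were 7.79% and 5.42%, against 12.6% and 11.1% of shared peaks. Taken per gene, a site lay in the gene or within 1 kb at 29.9% of the genes with peaks only at 120 h (26.1 to 34%) and at 35.4% of those with peaks only at 72 h (28 to 43.3%), against 37.4% of all 11660 genes. Gene length, which sets the chance of holding a site, was not held equal in these shares.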

How the data were processed

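H3K4me3 ChIP-seq peak lists of ER-Hoxa9-Lys-GFP cells were analysed, grouped by sample title and treatment label. The deposited files hold 3 columns, chromosome, start and end, as the authors called them, with no score, signal or count, and they were used as positions (unit: other). Bowtie2 2.0, BWA and MACS2 2.0, and the builds mm9 and mm10, are named per the submitters' processing notes. Which of them made each file, how deep the libraries were, and which threshold and input were used in calling is not given in the sources used here. Both the H3K4me3 and the V5 lists were treated as mm10 (GRCm38). A gene end of the GRCm38.p6 RefSeq table lay within 1 kb of 58.5% of 120 h peaks and 9.53% after a shift of 100 kb, of 65.2% and 9.47% of 72 h peaks, and of 11.7% and 5.66% of V5-Hoxa9-AM V5 sites. Overlaps with the AM and V5-ER-Hoxa9-AM lists are not reported, and the H3K27 lists were not used here.

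Only peaks on chromosomes 1 to 19 and X entered the comparison. A peak was in one list only if no peak of the other overlapped it by 1 bp. Covered length was summed over the span of each of 21627 protein-coding genes plus 1 kb on either side, and ratios of 120 h over 72 h used a pseudocount of 50 bp. Overlap arithmetic was tested on simulated intervals. Python 3.11.15, numpy 2.4.6, pandas 2.3.3, scipy 1.17.1 and matplotlib 3.10.9 were used. With 1 library per condition no test between conditions was made.

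The members and the 26 gene lists (655 entries in the 24 lists written by hand, of which 1 did not match) were chosen with earlier results of these data known. The ribosomal protein and histone lists were added after the values were seen. Named genes are up to 6 per list with the largest ratio, list genes with peaks in one list only, the 15 per direction with the most covered length or the largest ratio, the 15 widest one-list peaks per direction, and Gapdh, Hoxa9, Meis1, Myb, Cd34, Flt3, Kit, Spi1, Cebpe, Cebpa, Mpo, Elane, Ltf, Lyz2 and Itgam. The other genes named were chosen after their values were seen. Promoter sequences are from RefSeq (GRCm38.p6), which matched 17273 genes with 21044 TSSs.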

Additional observations from a re-analysis of the deposited data

How the results depend on the processing

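No paired analysis was possible because each condition had 1 library, and for the same reason no library could be left out. The alternatives with peaks of at least 200 bp, or with no peak of the other list within 1 kb, and, for counts of 2-fold genes only, those by median width and equal length, were chosen after seeing the data. Counting a peak as shared only at 50% overlap left 66.8% of the peaks found only at 120 h in none of the 3 earlier lists and 10.6% in E2; for 72 h these were 23% and 39%, with a V5-Hoxa9-AM V5 site at 10.1%. With peaks above the median width, 491 peaks were found only at 120 h (74.5% in none, 5.91% in E2) and 81 only at 72 h (3.7% in none, 72.8% in E2, 9.88% with a V5 site). The same setting gave 1108 genes with peaks only at 120 h, 431 only at 72 h and 702 at least 2-fold higher at 72 h. With lists of equal length 74.8% of the 120 h peaks were in none. Merging peaks within 1 kb left 2336 peaks at 120 h (3.68% in E2, 20.2% with a V5 site) and 773 at 72 h (37.6% in none, 19.1% in E2, 12.5% with a V5 site). With peaks of at least 200 bp, 73.9% of the 120 h peaks and 27.1% of the 72 h peaks were in none. Requiring no peak of the other list within 1 kb left 3079 peaks at 120 h (81.2% in none, 2.7% in E2, 16.3% with a V5 site) and 814 at 72 h (36% in none, 22% in E2, 12.3% with a V5 site). Genes at least 2-fold higher at 72 h numbered 195 around gene ends and 197 with a pseudocount of 200 bp. The share of 2-fold genes that were higher at 120 h was 78%, and lay between 68.9% and 81.3% over the alternatives. Scaling by total covered length moved the median log2 ratio of all genes to -0.10. Of 167 named genes past 2-fold, 112 stayed so around gene ends, 18 fell below 2-fold and 2 turned direction, Rps24 (0.22) and Siglece (-0.19). The rest, Mmp9 and Rara among them, had no peak around their gene ends in either list. The cause of these shifts was not tested. The order of the 120 h and 72 h peaks, in number, in the share in none and in the share in E2, held in each of these settings. The lists give no depth, so whether weaker peaks were missed in either cannot be told.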

Other observations

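Regulators of the G1 phase and of survival had few genes past 2-fold. Of 18 G1 cyclin and inhibitor genes with a peak, 13 had more covered length at 120 h and 2 were past 2-fold, with a median log2 ratio of 0.18. After scaling by total covered length 10 had more at 120 h and the median was 0.07. Cdkn2d, an inhibitor of the G1 kinases, had 3534 bp in the 120 h list and 1680 bp in the 72 h list, and Ccnd3, a D-type cyclin, 6676 bp (120 h) and 3333 bp (72 h). Of 13 BCL2 family genes with a peak, 8 had more covered length at 120 h and 5 at 72 h, and 2 were past 2-fold at 120 h and 0 at 72 h. Bmf, a pro-death member, had 3257 bp at 120 h, while 884 bp were covered at 72 h, and Mcl1, a survival factor of neutrophils, had 4453 bp (120 h) and 2782 bp (72 h). All 32 chromatin modifier genes had peaks in both lists and 0 were past 2-fold in either direction. Of these 32, 24 had more covered length at 120 h, or 20 after scaling by total covered length. Cytokine receptor genes had a median log2 ratio of 0.45 over 25 genes and feedback genes of the SOCS and STAT families 0.27 over 20, with 6 and 1 past 2-fold at 120 h and 0 at 72 h in both lists. Kdm6b, a demethylase of H3K27, had 8276 bp at 120 h compared with 4635 bp at 72 h.

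Some loci gathered many peaks of one list. A window of 100 kb on chromosome 5 (112200001 to 112300000, with Cryba4, Crybb1 and Tpst2) held 12 peaks found only at 120 h, and its covered length was 7478 bp in the 120 h list and 1630 bp in the 72 h list. Tpst2, a tyrosylprotein sulfotransferase, had 6388 bp at 120 h, while 1630 bp were covered at 72 h. The window with Rara on chromosome 11 held 10 such peaks. A window of the stefin cluster (chromosome 16, 36100001 to 36200000) held 8 peaks over 6714 bp at 120 h and 0 peaks in the other 4 lists. Of peaks found only at 72 h, a window of the histone cluster on chromosome 13 (23500001 to 23600000) held 7, although its covered length was 16542 bp at 120 h beside 15300 bp at 72 h. The window before it, with Abt1, Btn1a1 and Btn2a2, held 5. Likewise, the window with Gfi1 and Evi5 and the window with Ebf1, a B-cell factor, held 5 each. Covered length in the Ebf1 window was 703 bp at 120 h compared with 2770 bp at 72 h, below the 5330 bp in E2, 8134 bp at 24 h and 7690 bp at 40 h. Where the 72 h value stood varied between genes. At Cd34, Muc13, Auts2 and Ccr2 it lay between the earlier lists and 120 h. At Mpo (6782 bp) and Myb (6545 bp) it was above every other list, and at Meis1 (2180 bp) below every other list. Over all genes with a peak at 72 h or 120 h, the median was 868 bp in E2, 1352 bp at 72 h and 1356 bp at 120 h. These genes were chosen by a peak at 72 h or 120 h and not in E2, which lowers the E2 median. The E2 and 72 h medians can therefore not be compared.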
